A study of Mus musculus with 2 samples.

Results

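The 8 receptor genes Gpr84, Gpr183, Gpr35, Gpr34, Gpr65, Gpr132, Gpr171 and Gpr18 were measured in mouse colonic macrophages from DSS-treated and control animals. They were chosen by name, with earlier results of these arrays known, as receptors through which immune cells sense metabolites, lysolipids, oxysterols and acid. All 8 of 8 had 1 probe set each, out of 19938 genes measured. The DSS array was hybridised with RNA from colonic lamina propria macrophages of mice given 3% (wt/vol) dextran sulfate sodium, a polymer that injures the colon lining, in their water for 5 days, and the control array with RNA of macrophages sorted the same way from mice given plain drinking water for 5 days. In both groups cells were sorted for CD45, IAb, CD11b and F4/80 and against CD103, and 100 ng of RNA was amplified. The labels name no strain or age and no number of mice behind an array. There was 1 array per group, so no value below has a replicate error and no test between the conditions was possible. Each difference is the log2 signal on the DSS array minus that on the control array, and compares these 2 arrays.

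These receptors are membrane proteins that signal through heterotrimeric G proteins when a small molecule outside the cell binds them. Gpr84 responds to medium-chain fatty acids, Gpr35 to ligands proposed to include kynurenic acid, Gpr34 to lysophosphatidylserine and Gpr183 (also called EBI2) to dihydroxylated cholesterol, which guides the positions of immune cells in lymphoid tissue and gut. Gpr65 senses extracellular protons, Gpr132 is grouped with the proton sensors and responds to oxidised fatty acids and lactate, and Gpr171 binds a peptide cut from the proSAAS precursor. The ligand of Gpr18 is debated, with N-arachidonoyl glycine and a resolvin among the candidates.

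The 8 receptor genes did not differ as a block. Gpr35, Gpr84 and Gpr18 were at least 2-fold higher on the DSS array, Gpr34 was at least 2-fold lower, and Gpr132, Gpr171, Gpr65 and Gpr183 lay within 2-fold. Genes were counted when at least 1 array had them at or above that array's median of 5.62 (DSS) or 5.70 (control), which 11163 genes and all 8 receptors did. Of the receptors 3 of 8 were higher by this size, against 3.99% of the 11163 genes, and 1 of 8 was lower, against 3.03% of them. With a size of 1.5-fold, 4 receptors were higher (9.85% of genes) and 2 lower (8.8%), and with 3-fold, 0 were higher (1.64%) and 1 lower (1.06%). The receptors had a median difference of 0.64, beside -0.03 over all genes counted. As the receptors were chosen with results of these arrays known, these counts and medians are a description. All 8 were above the median on both arrays, so none of these folds starts from a dim signal. In place of replicate error, a yardstick of 0.28 is used, the pooled SD of the differences of separate probe sets for one gene. It comes from 641 genes with several probe sets, none of them a receptor. It reflects spread between probe sets, and nothing of the spread between animals or arrays.

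**Figure D1:**
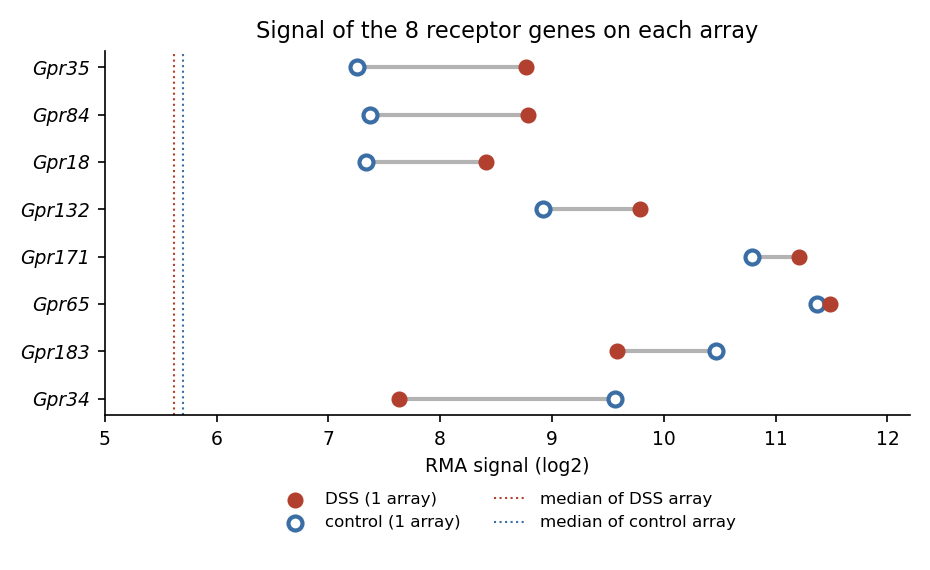
RMA signal (log2, horizontal axis) of the 8 receptor genes on the DSS array (filled) and the control array (open), 1 array each, ordered by difference; dotted lines are the medians of the 2 arrays. Gpr35 at 8.77 (DSS) and 7.26 (control) and Gpr34 at 7.63 (DSS) and 9.57 (control) are the ends of the order.

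Among the receptors with higher DSS signals, Gpr35 had the largest difference. It read 8.77 on the DSS array and 7.26 on the control array, a difference of 1.51 or 2.85-fold, and 1.801% of the genes counted had a higher difference. Gpr84, which myeloid cells switch on under inflammatory stimuli, read 8.79 in DSS and 7.37 in control, a difference of 1.42 or 2.67-fold. Both differences were over 1 on the log2 scale on probe sets that were clear of the array medians in both groups. Gpr18 read 8.41 in DSS and 7.34 in control, a difference of 1.08 or 2.11-fold, which is just past the 2-fold size.

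Gpr132 came next, with 9.79 in DSS and 8.92 in control, a difference of 0.87 or 1.83-fold. It was short of 2-fold, and 5.10% of genes had a higher difference. Gpr171 read 11.21 in DSS and 10.79 in control, a difference of 0.42 that is not far above the yardstick of 0.28. A higher difference was found in 15.7% of genes. Gpr65 read 11.49 in DSS and 11.37 in control. Its difference of 0.12 is under the yardstick, and it was -0.002 when the arrays were centred by loess, so no direction is given for this proton sensor.

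Gpr34 and Gpr183 had lower signals on the DSS array. Gpr34 read 7.63 in DSS and 9.57 in control, a difference of -1.94, which is 3.83-fold lower. Only 0.564% of the genes counted had a lower difference. Gpr183 read 9.58 in DSS and 10.47 in control, a difference of -0.89 or 1.86-fold lower, and 3.91% of genes lay below it. With loess centring its difference was -1.004, just past the 2-fold size, so its side of that size depends on the scaling while its direction does not.

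**Figure D2:**
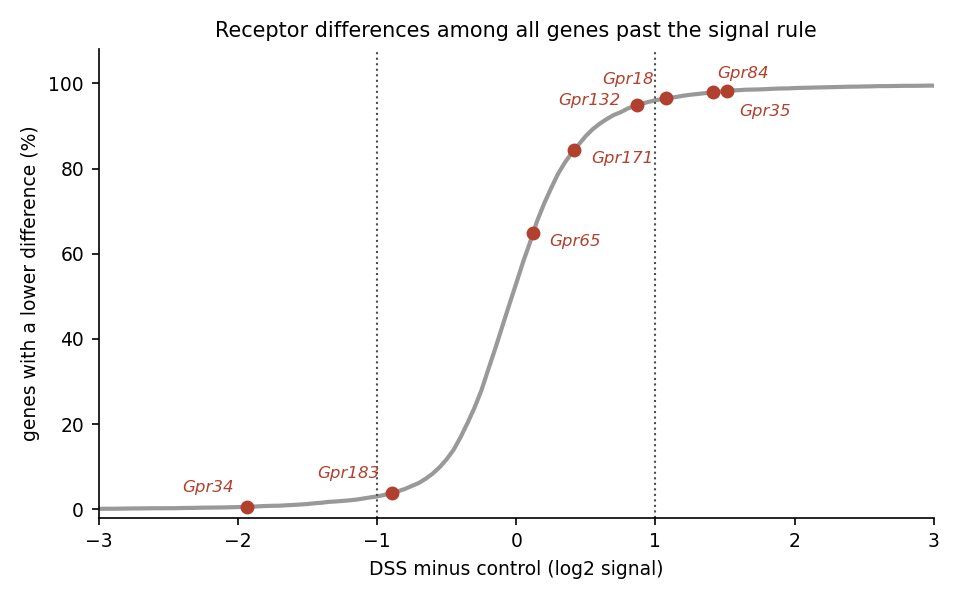
Cumulative share (%, vertical axis) of the 11163 genes counted that had a lower difference than the value on the horizontal axis (DSS minus control, log2 signal), with the 8 receptors as points and dotted lines at 2-fold. Gpr35, Gpr84 and Gpr18 lie right of the upper line, Gpr34 lies left of the lower line at -1.94, and Gpr65 sits near the middle at 0.12.

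Gpr18 and Gpr183 are next to each other on chromosome 14, both inside the span of Ubac2 (a ubiquitin-associated domain gene) and on the opposite strand to it in the RefSeq tables. Although adjacent, they differed in opposite directions, by 1.08 for Gpr18 and -0.89 for Gpr183, a gap of 1.97 on the log2 scale. Ubac2 itself read 7.66 in DSS and 7.19 in control. The 250 bases before the start site are shown for this pair and for Gpr35, the receptor with the highest difference, with the letters of a searched motif in capitals (RefSeq, GRCm38.p6, each 5′ to 3′ on the strand of its gene).
Gpr18, chr14:121915889-121916138, minus strand: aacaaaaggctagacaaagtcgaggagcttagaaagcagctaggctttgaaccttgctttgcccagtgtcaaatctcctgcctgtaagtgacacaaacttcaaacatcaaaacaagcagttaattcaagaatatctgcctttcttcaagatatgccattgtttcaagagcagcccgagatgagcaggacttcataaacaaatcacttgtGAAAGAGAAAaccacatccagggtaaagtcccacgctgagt
Gpr183, chr14:121965194-121965443, minus strand: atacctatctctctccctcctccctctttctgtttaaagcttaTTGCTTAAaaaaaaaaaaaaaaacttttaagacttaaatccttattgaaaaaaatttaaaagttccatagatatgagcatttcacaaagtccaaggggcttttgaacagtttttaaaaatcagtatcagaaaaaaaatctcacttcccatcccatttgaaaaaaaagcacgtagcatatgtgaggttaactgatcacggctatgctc
Gpr35, chr1:92978653-92978902, plus strand, 1 of 2 start sites: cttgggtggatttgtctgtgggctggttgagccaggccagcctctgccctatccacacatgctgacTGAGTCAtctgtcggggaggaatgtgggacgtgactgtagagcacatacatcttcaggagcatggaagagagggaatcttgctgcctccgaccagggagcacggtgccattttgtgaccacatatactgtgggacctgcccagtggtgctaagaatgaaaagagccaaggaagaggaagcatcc

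Of the 8 receptors, 6 had promoter windows in the RefSeq table, 7 windows in all, and Gpr34 and Gpr171 are named only. The Gpr35 window shown is the one of its 2 with a motif match. Both Gpr35 windows lie downstream of position 92948052, where the RefSeq span of the gene starts. Each window was searched on both strands for 4 motifs chosen after the signals were known: PU.1 (GAGGAAGT), the interferon-stimulated element (GAAA repeated after a gap of 2 bases), AP-1 (TGANTCA) and C/EBP (TTGCNNAA). The Gpr18 window held 1 interferon-stimulated element, GAAAGAGAAA, which starts 41 bases before the start site, and 2.98% of all 32851 windows of this length held one. In the Gpr35 window TGAGTCA matched AP-1 and starts 184 bases before the start site (6.75% of all windows). The Gpr183 window held TTGCTTAA, a C/EBP match, 207 bases before its start site (9.56% of all windows). PU.1 letters were in none of the 7 windows and in 2.44% of all. No match overlapped another. The windows of Gpr84, Gpr65, Gpr132 and the other start site of Gpr35 held none of these letters, which says nothing of the factors.

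Other neighbours also differed from the receptor beside them. Gpr34 lies within the span of Cask, a scaffold kinase gene, and next to the orphan receptor gene Gpr82. Gpr82 read 5.71 in DSS and 4.74 in control, where it was under the array's median, a difference of 0.98 beside -1.94 for Gpr34. Cask read 9.52 in DSS and 8.80 in control, and Nyx, the next gene on the other side, read 9.25 in DSS and 9.68 in control. Gpr171 lies within the span of Med12l, at 5.73 in DSS and 5.88 in control, and beside the UDP-sugar receptor gene P2ry14. The neighbours of Gpr84 read 8.54 in DSS and 7.997 in control for Copz1, a coat protein gene, and 7.10 in DSS and 7.29 in control for Zfp385a, a zinc finger gene. Around Gpr65, Galc, the lysosomal galactosylceramidase gene, read 8.26 in DSS and 8.58 in control. Outside the 8 receptors, no neighbour with a probe set reached 2-fold. Aqp12 (a difference of -0.16, near Gpr35) and Jag2 (-0.36, near Gpr132) were counted, and Capn10, Kcnk10, Dock9, Timm8a2 and Clrn1 were under the medians of both arrays.

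**Figure D3:**
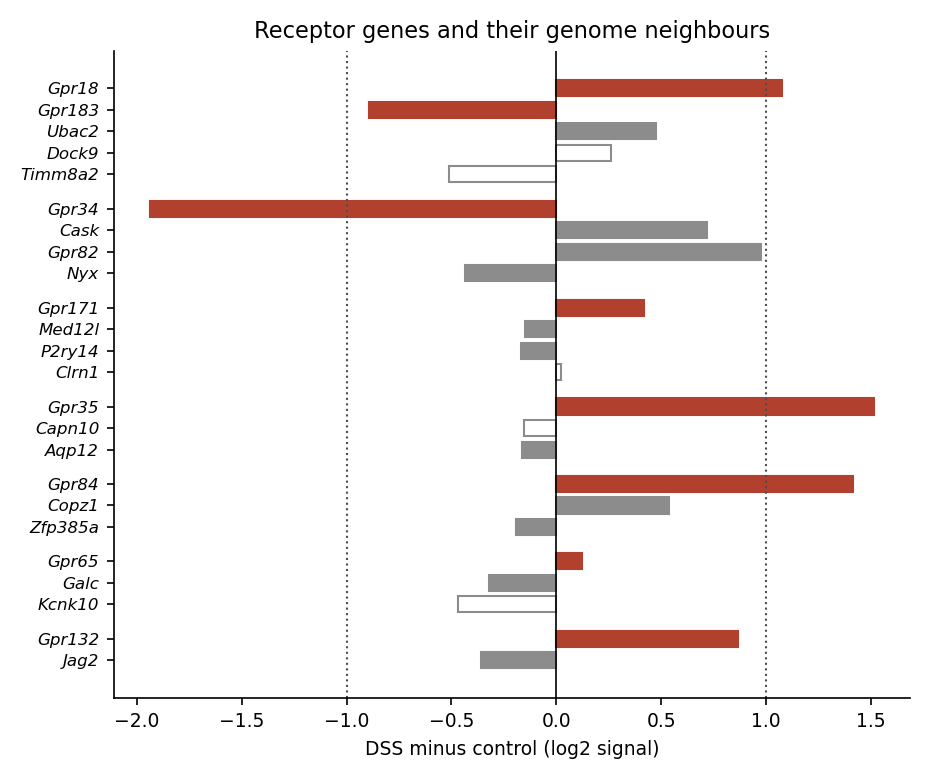
Difference (DSS minus control, log2 signal) of the receptor genes (red) and of the neighbouring or overlapping protein-coding genes with a probe set (grey); white bars are genes under the medians of both arrays and dotted lines mark 2-fold. Gpr18 at 1.08 and its neighbour Gpr183 at -0.89 point opposite ways. Gpr82 at 0.98, beside Gpr34 at -1.94, was under the control array's median and counted through its DSS reading only.

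Closely related receptors were also mixed. The P2Y12-like group, to which Gpr34 and Gpr171 belong, had 6 of 7 measured genes counted, of which 0 were higher by 2-fold and 2 lower, and a median of -0.41. Besides Gpr34, the lower one was P2ry12, the ADP receptor known from platelets and microglia, at 7.60 in DSS and 8.88 in control (2.43-fold lower). P2ry13, another ADP receptor, read 9.19 in DSS and 9.85 in control, and P2ry14 read 8.53 in DSS and 8.70 in control. P2ry10, a lysophosphatidylserine receptor, read 6.98 in DSS and 6.24 in control. Gpr174, also a lysophosphatidylserine receptor, was under both medians at 3.57 in DSS and 3.51 in control. Gpr171 and P2ry12, which lie in the same chromosome 3 cluster, had differences of 0.42 and -1.28, a gap of 1.70. P2ry14, the receptor gene right beside Gpr171, had a smaller difference of -0.17. Among the proton sensors beside Gpr65 and Gpr132, Gpr4 read 5.93 in DSS and 6.01 in control.

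Of 24 other metabolite and lysolipid receptors, 23 were measured and 10 were counted, 1 of these 10 at least 2-fold higher and 2 lower. Their median was 0.08. Hcar2, the receptor for ketone body and butyrate, was the higher one, at 8.09 in DSS and 6.09 in control (3.99-fold). S1pr1, the sphingosine phosphate receptor of lymphocyte exit, read 6.73 in DSS and 8.51 in control (3.43-fold lower), and Lpar1, a lysophosphatidic acid receptor, 7.54 in DSS and 8.65 in control (2.16-fold lower). The other 7, among them the short-chain fatty acid receptor gene Ffar2 and the bile acid receptor gene Gpbar1, had differences of -0.29 to 0.40. Sucnr1, Ffar1, Ffar3, Ffar4, Hcar1 and Oxgr1, receptors for succinate, fatty acids, lactate and ketoglutarate, were under both medians. Apart from the 8 receptors, 63 genes have a symbol of Gpr and a number, and 26 of these were counted, with 1 higher by 2-fold (Gpr141, at 9.996 in DSS and 7.97 in control, 4.08-fold), 0 lower and a median of -0.12. The 8 receptors were chosen with results of these arrays known, so their counts beside this group are a description.

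**Figure D4:**
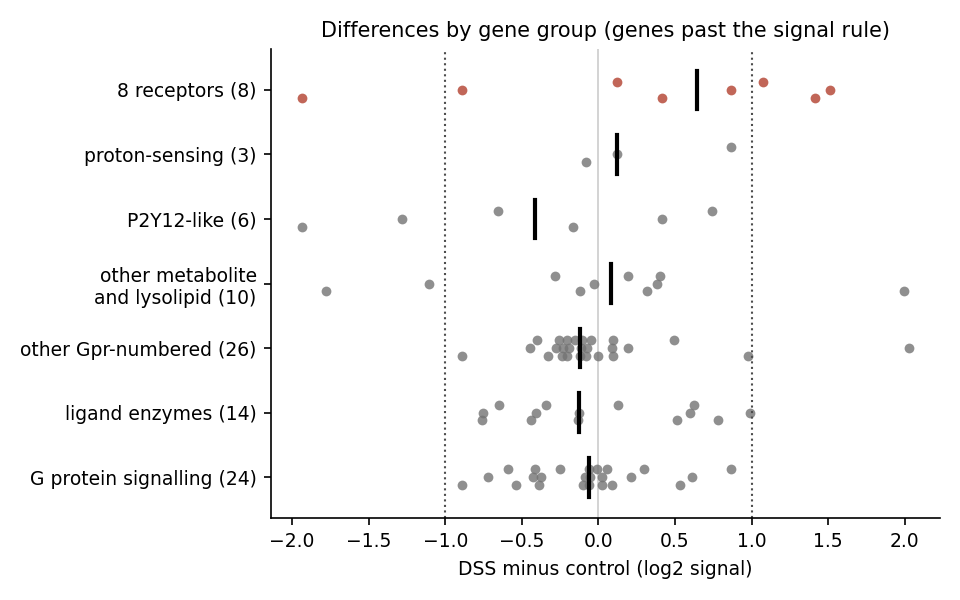
Difference (DSS minus control, log2 signal, horizontal axis) of each gene counted in 7 groups, with the number counted in brackets, the group median as a black bar and dotted lines at 2-fold. Groups overlap, as the proton-sensing group includes Gpr65 and Gpr132 and the P2Y12-like group Gpr34 and Gpr171. Gpr4 and Gpr55 are also among the other Gpr-numbered genes. The 8 receptors (red) run from -1.94 to 1.51 with a median of 0.64, and the 14 ligand enzymes and 24 G protein signalling genes all lie within 2-fold.

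Counted enzymes of the ligand pathways lay within 2-fold. For the oxysterol of Gpr183, Ch25h, the cholesterol hydroxylase that starts its synthesis, read 6.22 in DSS and 6.97 in control, a difference of -0.75 in the same direction as the receptor. Cyp7b1, the hydroxylase of the next step, and Hsd3b7, which degrades the ligand, were under both medians, at 4.97 and 5.37 in DSS and 4.45 and 5.52 in control. Cyp27a1 read 8.09 in DSS and 8.50 in control. Cyp39a1 read 6.44 in DSS and 5.45 in control, where it was dim, and Cyp46a1 was under both medians.

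For the kynurenine pathway, which includes kynurenic acid, proposed as a ligand of Gpr35, 6 of 11 enzymes were counted. Of these, 0 were at 2-fold in either direction. Their median of 0.32 is over the pathway and is not a measure of kynurenic acid. Kmo, the kynurenine hydroxylase, read 8.40 in DSS and 7.89 in control, and Kynu, the kynureninase, 9.59 in DSS and 9.46 in control. Got2, a mitochondrial transaminase that can form kynurenic acid, read 8.48 in DSS and 7.85 in control. Haao read 6.04 in DSS and 5.44 in control, where it was dim. Afmid and Kyat1 had differences of -0.13 and -0.34, and Kyat1 was dim on the DSS array. The entry enzymes Ido1, Ido2 and Tdo2 were under both medians, as were Kyat3 and Aadat.

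For lysophosphatidylserine, the ligand of Gpr34, Abhd12, the lipase that degrades it, read 8.16 in DSS and 8.92 in control, a difference of -0.76. Abhd16a, which forms it, read 7.03 in DSS and 7.16 in control, and the secreted phospholipase gene Pla1a 6.37 in DSS and 5.59 in control, the control reading being dim. For the fatty acids of Gpr84, Acadm, the medium-chain acyl-CoA dehydrogenase, read 8.10 in DSS and 8.55 in control and Crot, the carnitine octanoyltransferase, 7.76 in DSS and 8.42 in control, while Olah was under both medians. Pcsk1n, which encodes the proSAAS precursor of the Gpr171 ligand, read 5.66 in DSS and 6.10 in control, close to the medians. Of 29 G protein signalling genes 25 were measured, 24 were counted and 0 were at 2-fold, with a median of -0.06. Grk5, a kinase that desensitises receptors, had the highest difference at 0.87, and Adcy7, an adenylyl cyclase, the lowest at -0.89.

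Marker genes of several cell types were read on the same 2 arrays. All 11 neutrophil markers were at least 2-fold higher in DSS, with a summed signal of 15.02 in DSS and 10.80 in control (log2 of the sum of unlogged signals), and Ly6g read 10.01 in DSS and 4.04 in control. All 5 measured monocyte markers were at least 2-fold higher, with a summed signal of 13.72 in DSS and 10.76 in control. Of 11 resident macrophage markers 6 were at least 2-fold lower and 0 higher, with a summed signal of 13.12 in DSS and 14.40 in control. Gpr35, Gpr84 and Gpr18 were higher on the array with more neutrophil and monocyte signal. Gpr34 and Gpr183 were lower on that array, which had less resident macrophage signal. With 1 array per group, any gene that differs in these directions shares this pattern. The part of these cells in the receptor differences was not tested, and fewer cells of a type cannot be told apart from less RNA per cell. Gpr171, Gpr18 and Gpr183 are also known from lymphocytes. Both arrays had the T cell receptor complex genes Cd3d, Cd3e and Cd3g below their medians, and 2 of 8 measured T and NK cell markers were counted, with a summed signal of 8.54 in DSS and 8.58 in control. These 2 went opposite ways, Gzma at 6.37 in DSS and 4.69 in control and Cd2 at 6.11 in DSS and 7.38 in control. The B cell markers Ms4a1, Cd79a and Pax5 were likewise under both medians, while the B cell marker Cd79b read 6.82 in DSS and 6.71 in control, Mzb1 6.52 in DSS and 6.03 in control and Jchain 10.52 in DSS and 10.79 in control. The summed B and plasma cell signal was 10.79 in DSS and 10.99 in control. Dendritic cell, eosinophil, mast cell and epithelial markers had 1 gene at 2-fold between them, Siglech, at 6.22 in DSS and 7.66 in control. Of 6 counted dendritic cell markers 3 were higher and 3 lower in DSS. Short of 2-fold were Ccr7 (0.95), Flt3 (0.94), Clec9a (0.80, dim in control), Cd209a (-0.78) and Zbtb46 (-0.34, dim in DSS). Kit, the 1 mast cell marker counted, had a difference of 0.96. The sort antigens CD45, IAb, CD11b and F4/80 read 10.19 to 12.13 in DSS and 9.59 to 11.99 in control. Their differences were 0.40 for CD45, 0.14 for IAb, 0.60 for CD11b and -0.82 for F4/80. Itgae (CD103) was under both medians.

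Genes with the most similar pair of readings were found by Euclidean distance over the 2 arrays among the genes counted. The nearest gene was Zdhhc21 to Gpr35, Nufip1 to Gpr84, Arl2bp to Gpr18, Usp3 to Gpr132, Snrpe to Gpr171, Bag1 to Gpr65, Anxa6 to Gpr183 and the unnamed transcript G530011O06Rik to Gpr34. Distances ran from 0.0089 for Gpr132 to 0.092 for Gpr35. Within a distance of 0.2 there were 4 genes around Gpr34 and 55 around Gpr65, so with 2 arrays such likeness is shared by several genes for every receptor.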

How the data were processed

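The authors deposited log2 signals for 35556 probe sets on 2 arrays, 1 DSS and 1 control. RMA, which corrects background, normalises between arrays and summarises probes, was the method per the submitters' processing notes, which state no settings or version. A genome build is not given in the sources used here. Values were used as deposited. This method shrinks differences of dim signals, and no detection calls were used, so array medians over 28939 probe sets stood in for a detection limit. Genes were named from the platform annotation (21789 probe sets with 1 symbol, 1621 with several, 12146 with none), and 21698 matched RefSeq (GRCm38.p6) by Entrez identifier. A gene took its brightest probe set. The scan or hybridisation batch and the treatment cannot be told apart with 1 array in each group, and the number of arrays limits the precision. The receptors, the lists and the 2-fold size were chosen with earlier results of these data known.

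Genes were named by a rule: all receptors, their genome neighbours, all ligand and close family genes, the 2-fold genes of other lists with the largest opposite difference, the nearest pair of readings and the defining markers. Gene steps were tested on simulated data. Python 3.11.15, numpy 2.4.6, pandas 2.3.3, statsmodels 0.14.6 and matplotlib 3.10.9 were used.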

Additional observations from a re-analysis of the deposited data

How the results depend on the processing

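No paired analysis was possible because each group had 1 array. Under median centring and loess centring (span 0.4), 15 of 16 recomputed receptor differences had the same sign, the exception being Gpr65 at -0.002 under loess, and all 16 moved by less than 0.28. Median centring moves every gene by 1 shared amount, the gap between the array medians of 5.62 (DSS) and 5.70 (control). Its part of these counts was therefore fixed beforehand, and only the loess values could differ in how far they moved. The mean of all probe sets, a floor at the 25th percentile and other signal rules could not change a receptor's value or count, since each has 1 probe set and lies above both medians. Gpr34 ranged from -2.02 to -1.85, Gpr35 from 1.47 to 1.597, Gpr84 from 1.37 to 1.501 and Gpr18 from 1.05 to 1.16. With loess centring 2 receptors were at least 2-fold lower in place of 1. It subtracts a trend of the difference fitted along the mean signal, which moved Gpr183 from -0.89 to -1.004. The cause of that trend was not tested. At 1.5-fold 4 receptors were higher and 2 lower, and at 3-fold 0 were higher and 1 lower, which follows from the size chosen. The median of the G protein signalling genes was 0.02 under median centring, so it has no direction. That of the other metabolite and lysolipid receptors was -0.03 with no signal rule. The medians of the oxysterol enzymes (-0.11 with no signal rule) and lysophosphatidylserine enzymes (-0.44 with both arrays above their medians) moved by more than 0.28. With no signal rule the P2Y12-like median was -0.17 and the kynurenine enzyme median 0.13, in place of -0.41 and 0.32.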
